A study of Mus musculus with 4 samples.

Results

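A set of 31 genes was active in wild-type mouse blood progenitors and at least 2 times higher in every library labelled Hhex-deleted, out of 26286 genes in the deposited count table. Levels were in CPM, each gene's raw count per 1000000 counts of its library. A gene entered the set when it reached 5 CPM in both wild-type libraries and the lower of its Hhex-deleted levels was at least 2 times the higher of its wild-type levels. Genes on the X and Y chromosomes were left out, as were Cpa3, Mcpt8, Prss34, Ms4a2, Lat, Dntt, Blnk, Hdc and Fcer1a by name. The minimum was met by 11060 genes, of which 10716 remained after the genes that the rule leaves out. The genes were thus chosen by the CPM values of all 4 libraries, and their values below are a description that carries no test.

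The cells were LSK cells, bone marrow cells sorted as lineage-negative, Sca-1-positive and Kit-positive, a fraction of blood stem cells and multipotent progenitors. They came from C57BL/6 mice of wild-type genotype (2 libraries) or with a deletion of Hhex (2 libraries), and RNA was sequenced from sorted cells. The sources used here do not give the way Hhex was deleted, the age and sex of the mice or any pooling of animals. GEO's labels do not say whether replicates are separate mice. The libraries labelled Hhex-deleted differ in sex markers, as given below, so they did not come from the same animal. Any p-value below reflects the spread of these 4 libraries alone, and between the wild-type libraries that spread may be technical.

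Hhex encodes a homeodomain transcription factor that binds DNA and can repress its targets, and it is needed for normal development of lymphoid cells from bone marrow progenitors. LSK cells are immature, and genes of mature granule-bearing cells are usually weakly expressed in them. A rise of such a gene in bulk RNA can come from more cells of a type or from more RNA per cell, and these cannot be told apart here.

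Library totals ran from 27871827 to 29501591 counts, and every pair of libraries differed by more than sampling noise (chi-square of at least 24.1 per degree of freedom). Hhex itself was read at 125 and 115 CPM in the wild-type libraries and at 177 and 193 CPM in those labelled Hhex-deleted. The level was thus higher, not lower, in the libraries labelled Hhex-deleted. Counts are per gene and the deleted stretch is not given, so this value does not check the labels, and libraries are called by their labels throughout. Kit was read in every library (556 to 716 CPM), and so was Ly6a, which encodes Sca-1 (20.5 to 43.6 CPM). The library labelled Hhex-deleted replicate 1 held Xist at 2634 CPM and the Y-linked Ddx3y at 0.339 CPM, while the other 3 libraries held Xist at 2.66 CPM or less and Ddx3y at 124 CPM or more. That library therefore stands apart in sex markers, and the values below are given for each library.

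The 31 genes together took 541 and 543 CPM of the wild-type libraries, and 1924 and 1869.9 CPM of the libraries labelled Hhex-deleted. In share of all counts this was 0.0541% and 0.0543% against 0.192% and 0.187%. The summed level was close in replicates of a group, and the gap between the groups follows from the way the genes were chosen. A fold of means, the mean Hhex-deleted CPM over the mean wild-type CPM, ran from 2.11 for Slc7a8 to 8.57 for Igf2r, with a median of 3.37. Non-overlap in the direction of a higher Hhex-deleted level was met by 23.9% of the 10716 active genes, and the 2-fold rule by 0.289%. The mirrored rule, with the same minimum in the wild-type libraries, found 45 genes lower at least 2-fold, or 0.42%.

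**Figure D1:**
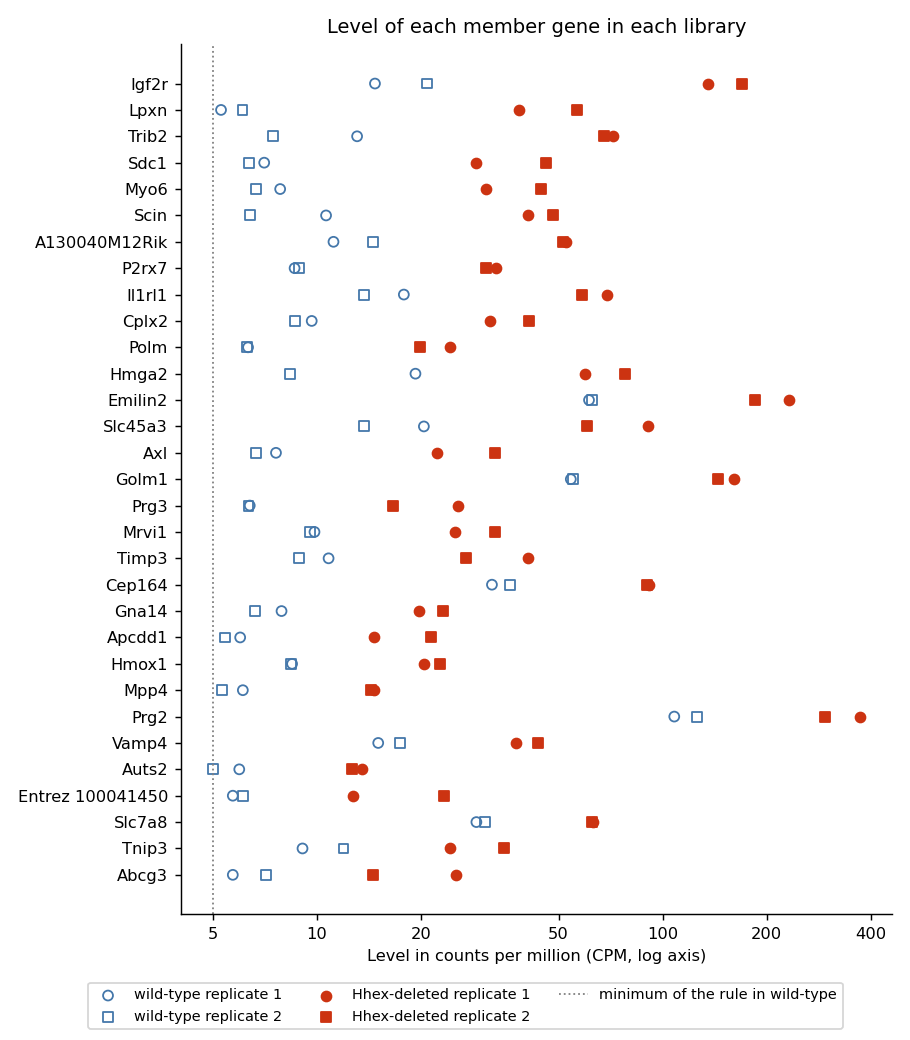
Level of each of the 31 genes in CPM on a log axis, with 1 point for each of the 4 libraries and a dotted line at the 5 CPM minimum. By the way the genes were chosen, both Hhex-deleted points of every gene lie to the right of both wild-type points.

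Most of the genes were weakly read in wild-type LSK cells. Scaled to gene length (RPKM, CPM per kilobase of gene), their mean wild-type levels had a median of 2.44 RPKM, against 18 RPKM over the 11060 active genes. The level was below that median in 30 of 31 genes, the exception being Prg2 at 139.7 RPKM. In CPM, 18 genes had a mean wild-type level under 10, 9 lay between 10 and 30, and 4 were at 30 or more (Prg2, Emilin2, Golm1 and Cep164). The lowest single count of any of these genes was 143 reads, for Auts2 in wild-type replicate 2. RefSeq lists 29 of the 31 as protein-coding. The other 2, A130040M12Rik and a gene given by its Entrez number 100041450 with no symbol, have no chromosome in the tables used here.

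Replicates of a group lay farther apart for these weakly read genes than for active genes in general. The wild-type libraries lay a median of 1.15-fold apart, against 1.07-fold over all active genes, and the Hhex-deleted libraries 1.26-fold, against 1.09-fold. Neither Hhex-deleted library was the higher throughout, since replicate 1 held the higher level for 16 genes and replicate 2 for 15. The wild-type libraries lay over 1.5-fold apart for Hmga2 (2.30-fold), Trib2 (1.75-fold) and Scin (1.66-fold). For the Hhex-deleted libraries this held for Entrez gene 100041450 (1.83-fold), Abcg3 (1.74-fold), Sdc1 (1.59-fold), Prg3 (1.54-fold) and Timp3 (1.51-fold).

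A model was also fitted to the counts of all 14912 genes that passed a filter on low counts, with edgeR's quasi-likelihood test and Benjamini-Hochberg adjustment. It called 221 genes higher (1.48%) and 167 lower (1.12%) at an adjusted p under 0.05. All 31 genes passed the filter and 27 were among those called higher, a count that the choice of genes on the same contrast brings with it. The 4 that were not called were Hmga2, Slc45a3, Abcg3 and Entrez gene 100041450. Their fitted log2 fold changes of 1.58 to 2.28 came with standard errors of 0.29 to 0.50, above those of most other genes of the set. Fitted log2 fold changes below are Hhex-deleted over wild-type, with n = 2 libraries in each group, and the median over the 31 genes was 1.73. Over all genes DESeq2 called 488 higher and 501 lower, and limma-voom 187 higher and 149 lower. For counts at an unadjusted p given below, no share over all genes was taken.

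Golm1 and Cep164 lead the set as markers. Golm1 encodes a membrane protein of the Golgi, and Cep164 a protein of the distal appendages by which a centriole docks to a membrane to form a cilium. The 250 bases before the RefSeq start of each gene are printed to show the sequence at which their transcription begins, together with that before both RefSeq starts of Il1rl1, the receptor gene described next. They are on the build GRCm38.p6 and read 5′ to 3′ on the strand of the gene, with capitals marking ATTAA, a core bound by many homeodomain proteins, and AGATAA, a core bound by GATA factors, on either strand.
Golm1 chr13:59675785-59676034 (minus strand): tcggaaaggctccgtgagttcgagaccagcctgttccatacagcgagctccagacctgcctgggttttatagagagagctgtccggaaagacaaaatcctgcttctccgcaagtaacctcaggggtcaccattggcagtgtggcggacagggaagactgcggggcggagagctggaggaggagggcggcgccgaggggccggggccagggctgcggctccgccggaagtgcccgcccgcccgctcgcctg
Cep164 chr9:45828664-45828913 (minus strand): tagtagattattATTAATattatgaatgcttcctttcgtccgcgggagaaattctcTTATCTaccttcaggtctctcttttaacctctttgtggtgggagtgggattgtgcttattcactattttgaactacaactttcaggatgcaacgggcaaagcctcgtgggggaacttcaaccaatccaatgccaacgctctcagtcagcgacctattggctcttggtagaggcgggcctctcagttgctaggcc
Il1rl1 distal start chr1:40429320-40429569 (plus strand): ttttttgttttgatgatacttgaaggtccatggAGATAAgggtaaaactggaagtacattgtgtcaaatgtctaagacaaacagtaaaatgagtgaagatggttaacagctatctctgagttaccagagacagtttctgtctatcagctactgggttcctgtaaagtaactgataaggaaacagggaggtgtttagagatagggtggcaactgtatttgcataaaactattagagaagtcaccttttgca
Il1rl1 proximal start chr1:40439379-40439628 (plus strand): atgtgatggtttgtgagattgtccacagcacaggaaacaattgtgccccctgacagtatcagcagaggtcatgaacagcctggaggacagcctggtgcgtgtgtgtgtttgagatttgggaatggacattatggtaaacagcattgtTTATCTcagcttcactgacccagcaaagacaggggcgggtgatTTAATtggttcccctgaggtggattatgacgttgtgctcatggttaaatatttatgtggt
The Golm1 stretch holds neither core, the Cep164 stretch holds overlapping ATTAA matches and an AGATAA match, and each Il1rl1 stretch holds an AGATAA match, the proximal one beside an ATTAA match. Such matches are letters found in a window, and nothing on binding was measured here.

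Golm1 was read at 54.2 and 55.2 CPM in the wild-type libraries and at 161 and 145 CPM in those labelled Hhex-deleted, a log2 fold change of 1.46 ± 0.09 (SE). Cep164 stood at 32.1 and 36.2 CPM against 91.1 and 90.4 CPM, a log2 fold change of 1.39 ± 0.09. For both genes the replicates of a group lay closer together than for most of the set. Other genes of the same structures did not pass the test. Of 22 other tested genes of distal appendages, centrioles and cilia, edgeR called 0 higher and 0 lower, and their median log2 fold change was 0.05. At an unadjusted p under 0.05 it found 0 higher and 2 lower, DESeq2 called 0 higher and 1 lower, and limma-voom called 0 in either direction. Of 23 other tested genes of Golgi membranes and matrix, edgeR again called 0 higher and 0 lower, with a median of -0.01, while 0 were higher and 4 lower unadjusted and both DESeq2 and limma-voom called 0. Over all 14912 tested genes the median was -0.01, and edgeR called 1.48% higher and 1.12% lower. A count of 0 in lists this short is near those shares, so it does not set the lists apart from other genes. Summed over the list without Cep164, the centriole genes took 1473 and 1479 CPM in the wild-type libraries and 1435.5 and 1427 CPM in those labelled Hhex-deleted.

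Genes of granules and of type 2 immunity were Prg2, Prg3 and Il1rl1, and Prg2 had the highest level per length of the set. Prg2, which encodes the major basic protein of eosinophil granules, stood at 108 and 126 CPM in the wild-type libraries and at 373 and 296 CPM in those labelled Hhex-deleted. Its neighbour Prg3, a related granule protein gene, stood at 6.39 and 6.33 CPM against 25.5 and 16.5 CPM. Il1rl1, which encodes the receptor for interleukin 33 on mast cells, basophils and other type 2 cells, stood at 17.8 and 13.7 CPM against 68.9 and 58.4 CPM. For all 3 genes, replicate 1 was the higher of the Hhex-deleted libraries.

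Some other genes of mast cells and basophils were higher in the same libraries. Of 18 such genes tested beside Il1rl1, edgeR called 9 higher and 0 lower, with a median log2 fold change of 1.72, while 14 were higher and 2 lower at an unadjusted p under 0.05, DESeq2 called 13 higher and 1 lower, and limma-voom called 8 higher and 0 lower. Without the library that stands apart in sex markers, edgeR called 9 higher, with a median of 1.76. The edgeR shares over all 14912 tested genes were 1.48% higher and 1.12% lower. Summed over the list without Il1rl1, the level was 2428 and 2398 CPM in the wild-type libraries and 3508 and 3266 CPM in those labelled Hhex-deleted. Wild-type LSK libraries already held 12 of the 20 listed genes at 5 CPM or more. Which cells these reads came from was not tested. The 9 that edgeR called with no library left out included Cpa3, Mcpt8, Prss34, Ms4a2, Fcer1a and Lat. The rule leaves these out by name, and the rest of the 9 were Cyp11a1, Slc18a2 and Cd200r3. Granule protease genes of mast cells differed among themselves. Mcpt4 was at 0.14 CPM or less in every library, and Tpsb2 at 0.215 and 0.175 CPM in the wild-type libraries and at 0 in both others. The chymase gene Cma1 stood at 1.26 and 0.735 CPM against 2.44 and 1.74 CPM and was not called (log2 fold change 1.05). The carboxypeptidase gene Cpa3 stood at 123 and 106 CPM against 572 and 548 CPM. Hdc, the histamine-synthesising enzyme gene that the rule leaves out by name, went the other way in its levels, at 117 and 149 CPM against 113 and 77.7 CPM. Of the genes the rule leaves out, Ms4a2, Cpa3, Prss34, Mcpt8, Dntt and Lat would have passed both thresholds, by ratios of 6.18, 4.44, 3.62, 3.39, 3.08 and 2.78, as would the X-linked Sytl4 at 3.15. The part that such cells have in the levels of the 31 genes was not tested.

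Eosinophil genes beyond Prg2 and Prg3 did not pass the test. Of 8 others, edgeR called 0 in either direction, with 4 higher and 0 lower at an unadjusted p under 0.05 and a median log2 fold change of 1.00, while limma-voom called 0 and DESeq2 3 higher and 1 lower. Without wild-type replicate 2, edgeR called 3 of them higher, without either Hhex-deleted library 1 higher, and without wild-type replicate 1 it called 1 lower. The edgeR shares over all 14912 tested genes were 1.48% higher and 1.12% lower. Summed over the 8 genes, the level was 141 and 209 CPM in the wild-type libraries and 272 and 252 CPM in those labelled Hhex-deleted. Epx, the eosinophil peroxidase gene, had a log2 fold change of 1.24, and the granule ribonuclease genes Ear1 and Ear2 had 1.29 and 1.18. These were the highest of the 8. Ear6, Ccr3, Il5ra, Siglecf and Cebpe had 1.10, 0.90, 0.45, 0.25 and -0.80. Ear1 was uneven in the wild-type libraries, at 11.1 and 24.3 CPM.

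Most B lineage genes were higher in the same libraries. That 0 of the list are in the set follows from the rule. Dntt is left out by name, Cd79b missed the fold and the rest missed the wild-type minimum. Of 17 tested B lineage genes, edgeR called 12 higher and 0 lower, with a median log2 fold change of 2.49, and 14 were higher and 0 lower unadjusted. Without the first Hhex-deleted library 12 were called, and without wild-type replicate 1, 9. DESeq2 called 12 higher and 0 lower. The edgeR shares over all 14912 tested genes were 1.48% higher and 1.12% lower. The summed level of the B lineage genes went from 186 and 215 CPM to 671 and 989 CPM, and 2 of the 17 reached 5 CPM in both wild-type libraries. Genes of granulocyte-monocyte progenitors and neutrophils had a median of -0.96, with 1 of 15 called higher and 2 lower (4 lower when wild-type replicate 1 was left out, 1 for Hhex-deleted replicate 1 and 0 for Hhex-deleted replicate 2). At an unadjusted p under 0.05, 1 was higher and 6 lower, DESeq2 called 1 higher and 6 lower, and limma-voom 1 higher and 2 lower. Their summed levels were 17729 and 22513 CPM against 12406 and 9614 CPM. How far a shift in the mix of cells enters the levels of the 31 genes was not tested.

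Surface receptors held the highest fold of the set. Igf2r encodes the receptor that takes up insulin-like growth factor 2 and carries lysosomal enzymes. It was read at 14.7 and 20.9 CPM in the wild-type libraries and at 135 and 169 CPM in those labelled Hhex-deleted, a log2 fold change of 3.07 ± 0.19. P2rx7, an ATP-gated ion channel gene, stood at 8.61 and 8.89 CPM against 32.8 and 30.7 CPM. Sdc1, which encodes the heparan sulphate proteoglycan syndecan-1 (CD138), stood at 7.03 and 6.37 CPM against 28.9 and 45.9 CPM. Its Hhex-deleted replicates lay well apart, while those of P2rx7 were close. Axl, a receptor tyrosine kinase gene of the TAM family, stood at 7.61 and 6.65 CPM against 22.2 and 32.7 CPM, and Apcdd1, which encodes a membrane inhibitor of Wnt signalling, at 5.99 and 5.42 CPM against 14.6 and 21.3 CPM. In these 5 genes the fold of means ran from 3.15 to 8.57.

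Genes of vesicles and the cytoskeleton made up the largest role group, 8 genes with Golm1 and Cep164. Lpxn encodes leupaxin, a focal adhesion protein of blood cells. It stood at 5.27 and 6.09 CPM in the wild-type libraries and at 38.4 and 56.7 CPM in those labelled Hhex-deleted, a log2 fold change of 3.04 ± 0.20. Lpxn was just above the wild-type minimum, and in the libraries labelled Hhex-deleted its mean was 28.4 RPKM against 3.40 RPKM in wild-type. Myo6, the gene of a myosin that walks toward the minus end of actin filaments, stood at 7.82 and 6.65 CPM against 30.9 and 44.4 CPM. Scin, the gene of the actin-severing protein scinderin, stood at 10.6 and 6.40 CPM against 40.8 and 48.3 CPM. Cplx2, which encodes a complexin that binds the SNARE complex in regulated exocytosis, stood at 9.65 and 8.64 CPM against 31.6 and 41.1 CPM. Myo6, Scin and Cplx2 were each higher in replicate 2 than in replicate 1 of the libraries labelled Hhex-deleted. Mpp4, a scaffold protein gene, stood at 6.10 and 5.32 CPM against 14.6 and 14.4 CPM. Vamp4, a SNARE gene of the trans-Golgi network, and Mpp4 had folds of means of 2.51 and 2.54, the lowest of the group.

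Genes of the extracellular matrix were Emilin2 and Timp3. Emilin2, an elastin microfibril interface protein gene, stood at 61.2 and 62.3 CPM in the wild-type libraries and at 232 and 185 CPM in those labelled Hhex-deleted, a log2 fold change of 1.73 ± 0.14. Timp3, which encodes a matrix-bound inhibitor of metalloproteinases, stood at 10.8 and 8.89 CPM against 40.9 and 27.0 CPM. Replicate 1 was the higher of the Hhex-deleted libraries for both.

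Signalling genes included Trib2, a pseudokinase gene whose product directs C/EBP alpha to degradation. It stood at 13.1 and 7.45 CPM in the wild-type libraries and at 71.8 and 67.7 CPM in those labelled Hhex-deleted, a log2 fold change of 2.74 ± 0.29. The wild-type libraries differed more than the Hhex-deleted ones. Gna14, a G protein alpha subunit gene of the Gq class, Tnip3, the gene of a protein that binds the NF-kappa B regulator A20, and Mrvi1, whose product is a target of cGMP-dependent kinase, had folds of means of 2.81 to 2.98. Tnip3, at 9.08 and 11.9 CPM against 24.3 and 34.7 CPM, was among the genes nearest the threshold.

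Nuclear proteins were encoded by 3 of the genes. Hmga2, a chromatin architectural factor gene with a known role in the self-renewal of fetal and young stem cells, stood at 19.3 and 8.36 CPM in the wild-type libraries and at 59.6 and 77.7 CPM in those labelled Hhex-deleted. Its log2 fold change was 2.28 ± 0.50 and was 3.02 without wild-type replicate 1. Polm, a DNA polymerase gene used in end joining of V(D)J breaks, stood at 6.31 and 6.26 CPM against 24.3 and 19.8 CPM. Auts2, a gene linked to a non-canonical Polycomb complex, had the lowest wild-type level that met the minimum, with 5.96 and 5.0 CPM against 13.5 and 12.6 CPM.

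Transporters and metabolic enzymes were Slc7a8, Slc45a3, Abcg3 and Hmox1. Slc7a8, an amino acid exchanger gene, stood at 28.9 and 30.6 CPM in the wild-type libraries and at 63.0 and 62.5 CPM in those labelled Hhex-deleted. Its fold of means, 2.11, was the lowest of the set, and its replicates lay close together in both groups. Slc45a3, a solute carrier gene, stood at 20.4 and 13.7 CPM against 90.5 and 60.4 CPM. Hmox1, which encodes inducible haem oxygenase, stood at 8.47 and 8.40 CPM against 20.4 and 22.7 CPM. The unannotated A130040M12Rik stood at 11.2 and 14.5 CPM against 52.4 and 51.6 CPM, a log2 fold change of 2.00 ± 0.14.

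**Figure D2:**
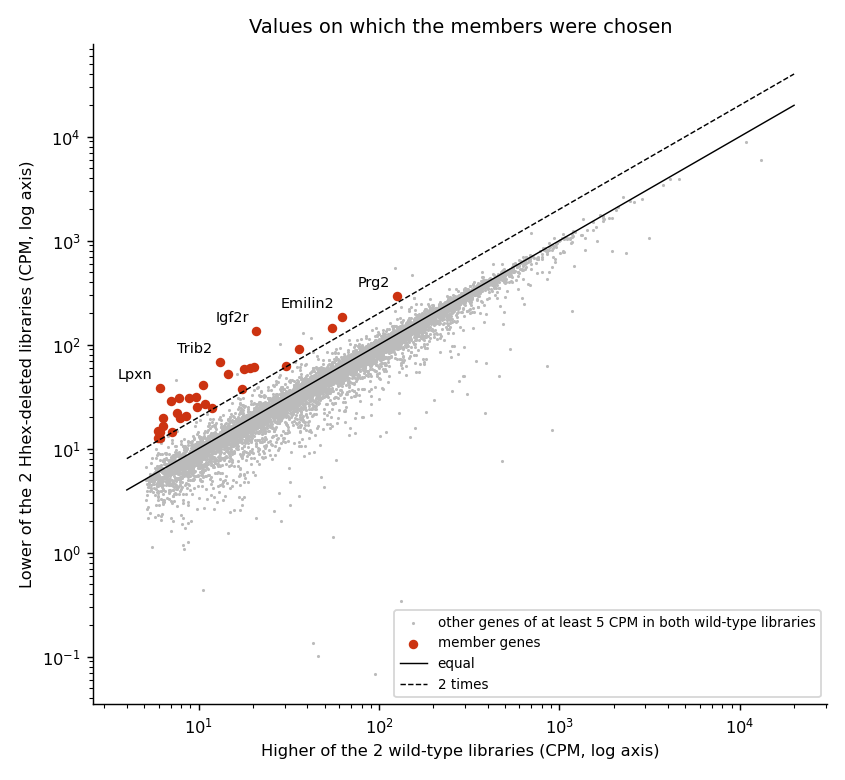
Higher wild-type level against lower Hhex-deleted level in CPM, both on log axes, for every gene of at least 5 CPM in both wild-type libraries, with a solid line at equality and a dashed line at 2 times. The 31 genes lie above the dashed line by the rule, and Igf2r and Lpxn lie farthest above it, by ratios of 6.5 and 6.30. Ms4a2, Cpa3, Prss34, Mcpt8, Sytl4, Dntt and Lat, which the rule leaves out, also lie above it and are drawn as other genes.

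The rule's ratio, the lower Hhex-deleted level over the higher wild-type level, fell off without a gap at the threshold. It was 4 or more in 4 genes, 3 to 4 in 8, 2.5 to 3 in 7 and under 2.5 in 12. Just inside were Abcg3 (2.03), Tnip3 (2.04), Slc7a8 (2.04) and Entrez gene 100041450 (2.08). Just outside were P2rx4 (1.98), Tnk2 (1.97), Ryk (1.94) and Tox (1.94). The lower wild-type level was 5.0 CPM in Auts2, 5.27 in Lpxn and 5.32 in Mpp4, while St8sia6 (4.86), Plxdc2 (4.76) and Pou6f1 (4.41) met the fold but missed the minimum.

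Close relatives of the 31 genes were then compared, in 17 gene families or clusters chosen after values had been seen. Of 66 tested relatives, edgeR called 4 higher and 0 lower, with a median log2 fold change of -0.01. At an unadjusted p under 0.05 it found 11 higher and 9 lower, while DESeq2 called 7 higher and 6 lower and limma-voom 4 higher and 0 lower. Over all 14912 tested genes, edgeR called 1.48% higher and 1.12% lower. The 4 relatives that edgeR called were P2rx4, Airn, Slc22a3 and Dntt, the last of which the rule leaves out by name. Each family was drawn up around a gene of the set, so it follows from the choice that most held only 1. Relatives that did not pass the test are also what most tested genes were.

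**Figure D3:**
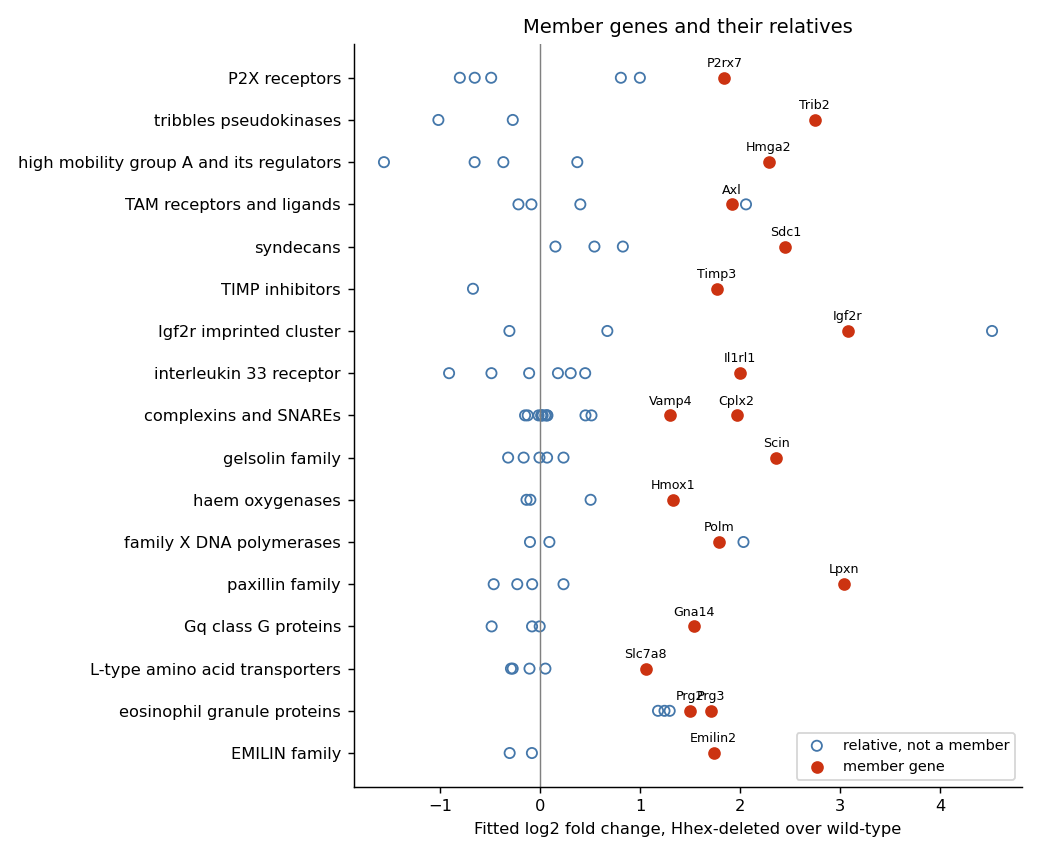
Fitted log2 fold change, Hhex-deleted over wild-type, of the genes of the set (filled) and of their tested relatives (open), with 1 row for each family or cluster. In the tribbles row Trib2 lies at 2.74 while Trib1 lies at -1.02 and Trib3 at -0.28.

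The tribbles genes Trib1 and Trib3 had log2 fold changes of -1.02 and -0.28, neither called. Trib1 was uneven within both groups, at 30.6 and 2.41 CPM in wild-type and at 15 and 1.46 CPM in the libraries labelled Hhex-deleted. Hmga1, the other high mobility group A gene, stood at 100.2 and 109 CPM against 79.2 and 55.3 CPM and was not called. Lin28a, whose product blocks the let-7 miRNAs that hold Hmga2 down, stood at 7.21 and 17.4 CPM against 2.88 and 5.58 CPM and was not called. Among the family X DNA polymerases, Dntt, which encodes terminal transferase, was higher as well as Polm. Dntt lies on chromosome 19 and Polm on chromosome 11. Dntt stood at 132 and 152 CPM against 470 and 716 CPM and was called (edgeR adjusted p = 0.021). That call was lost without wild-type replicate 1 (edgeR adjusted p = 0.084) or wild-type replicate 2 (0.13). Poll and Polb had log2 fold changes of -0.10 and 0.09. Il1rap, the co-receptor of Il1rl1, had -0.11, and M6pr, the other mannose 6-phosphate receptor beside Igf2r, had -0.31, neither called.

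Genes next to the members on the chromosome gave the next comparison. In the RefSeq order of GRCm38, 29 of the 31 genes had a place, and 54 adjacent genes (the nearest protein-coding gene on either side with 15 or more reads in all that does not overlap the member) that are not in the set were tested. Of these edgeR called 3 higher and 0 lower, with 12 higher and 1 lower at an unadjusted p under 0.05, while DESeq2 called 6 higher and 2 lower and limma-voom 2 higher and 0 lower. The edgeR share over all 14912 tested genes was 1.48% higher and 1.12% lower. The median log2 fold change of the adjacent genes was 0.13. Their range was -0.91 for Il1rl2, beside Il1rl1, to 2.78 for Gbp8, beside Abcg3. With a library left out, edgeR called 1 adjacent gene higher (without wild-type replicate 2), 2 (without wild-type replicate 1), 3 (without Hhex-deleted replicate 2) or 5 (without Hhex-deleted replicate 1). Prg2 and Prg3 were the only adjacent pair that is wholly in the set.

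**Figure D4:**
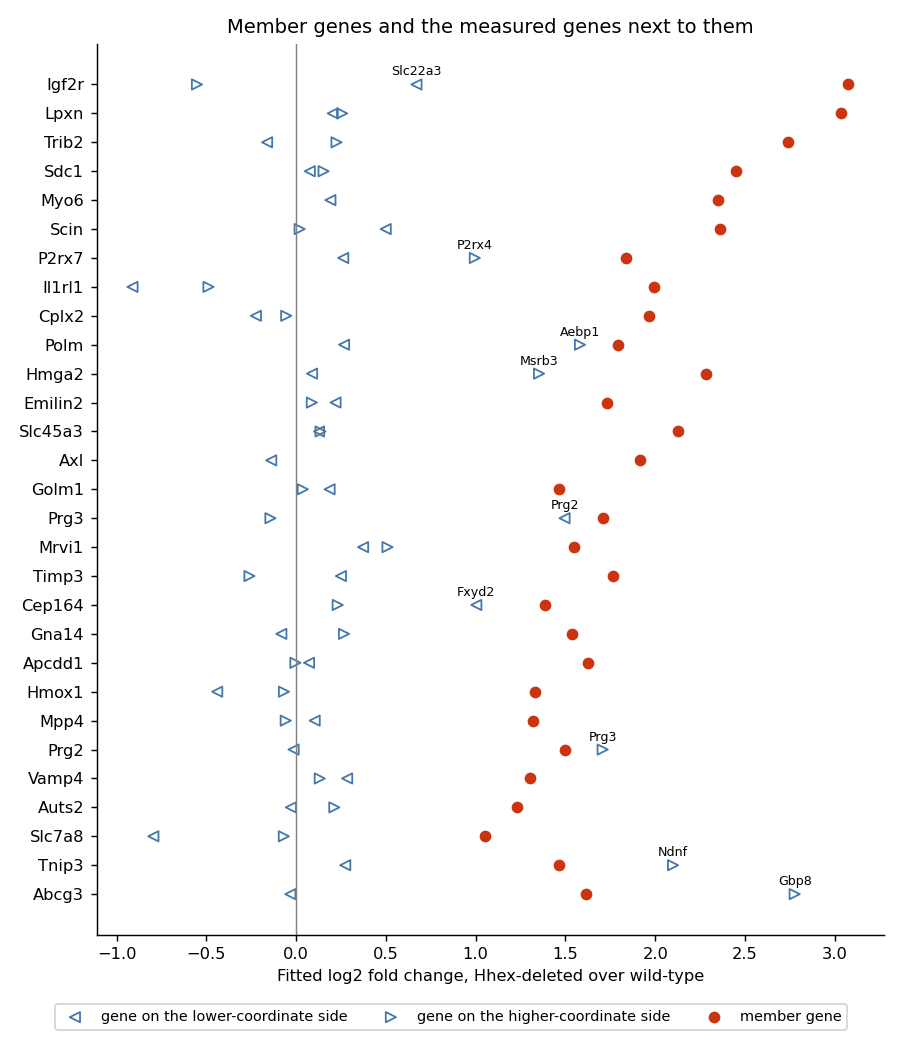
Fitted log2 fold change, Hhex-deleted over wild-type, of each gene of the set (filled circle) and of the measured genes on either side of it (open triangles). Gbp8 beside Abcg3, P2rx4 beside P2rx7 and Slc22a3 beside Igf2r are the adjacent genes called higher, at 2.78, 1.00 and 0.67.

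P2rx4, a further ATP-gated channel gene that lies beside P2rx7, stood at 33.5 and 34.4 CPM in the wild-type libraries and at 68.1 and 69.6 CPM in those labelled Hhex-deleted. It just missed the 2-fold rule, and its log2 fold change of 1.00 ± 0.08 had an edgeR adjusted p of 0.0049. That call held without each library in turn, with edgeR adjusted p-values of 0.0087 to 0.023. P2rx1, which lies on another chromosome, had a log2 fold change of -0.49 and was not called.

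Around Igf2r, the overlapping Airn and the adjacent Slc22a3 were called higher, and the gene on the other side, Pnldc1, was not called (log2 fold change -0.55, edgeR adjusted p = 0.57). Airn, the long noncoding RNA read from the strand opposite Igf2r and known for imprinted silencing of it in other tissues, stood at 0.395 and 0.280 CPM in the wild-type libraries and at 6.54 and 9.36 CPM in those labelled Hhex-deleted. Its log2 fold change was 4.52 ± 0.33 (edgeR adjusted p = 0.0043), and it stayed called without each library in turn (edgeR adjusted p = 0.0029 to 0.016). Per length it was at 2.99 and 4.28 RPKM in the libraries labelled Hhex-deleted, below Igf2r at 15.2 and 19.0 RPKM. Airn overlaps Igf2r, and the counting is not stated to use strand, so reads of the pair cannot be told apart. Slc22a3, an organic cation transporter gene of the same cluster, stood at 191 and 158 CPM against 275 and 290.4 CPM, a log2 fold change of 0.67 ± 0.11 (edgeR adjusted p = 0.041). The Slc22a3 call was lost without wild-type replicate 2 (edgeR adjusted p = 0.15), without Hhex-deleted replicate 1 (0.080), without Hhex-deleted replicate 2 (0.11) and with a replicate block (0.061). Igf2, the growth factor gene, had 8 reads or fewer in every library.

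Annotated genes overlapped 14 of the 31 genes, and 7 of these overlapping genes were tested. Syn3 over Timp3, Zfp91 over Lpxn and P2rx3 over Prg3 had log2 fold changes of 0.25, 0.18 and -0.80, none of the 3 called.

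Abcg3, a transporter gene beside a block of guanylate-binding protein genes on chromosome 5, stood at 5.70 and 7.14 CPM in the wild-type libraries and at 25.3 and 14.5 CPM in those labelled Hhex-deleted. The 6 guanylate-binding protein genes on chromosome 5 (Gbp4, Gbp6, Gbp8, Gbp9, Gbp10 and Gbp11) encode interferon-induced GTPases. Their summed level was 12.1 and 10.6 CPM in wild-type and 196 and 68.7 CPM in the libraries labelled Hhex-deleted. All 6 were higher in replicate 1 than in replicate 2, by 1.87 to 14.8-fold, and Abcg3 was so by 1.74-fold. Near-identical copies in this block can share reads, so values of single genes are uncertain.

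The edgeR test called 2 of the 6 higher, Gbp8 (adjusted p = 0.025) and Gbp9 (adjusted p = 0.037), and their log2 fold changes ran from 2.78 to 6.68. The number called was 0 without either wild-type library, 5 without Hhex-deleted replicate 1 and 6 without Hhex-deleted replicate 2, while DESeq2 called 6 and limma-voom 0. In the related genes on chromosome 3 the summed levels of the groups overlapped. Those 6 genes summed to 209.8 and 215 CPM in wild-type and 199 and 252 CPM in the libraries labelled Hhex-deleted. Of the 5 tested there, edgeR called 0 higher and 1 lower (Gbp3, log2 fold change -0.82, adjusted p = 0.013 and 0.060 without wild-type replicate 2), and 0 were higher in Hhex-deleted replicate 1 than in replicate 2. At an unadjusted p under 0.05, 2 of these 5 were higher and 1 lower, DESeq2 and limma-voom each called 0 higher and 1 lower, and edgeR called 2 higher without Hhex-deleted replicate 1. Replicate 1 is also the library that stands apart in sex markers, and the part of this in the chromosome 5 levels was not tested.

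**Figure D5:**
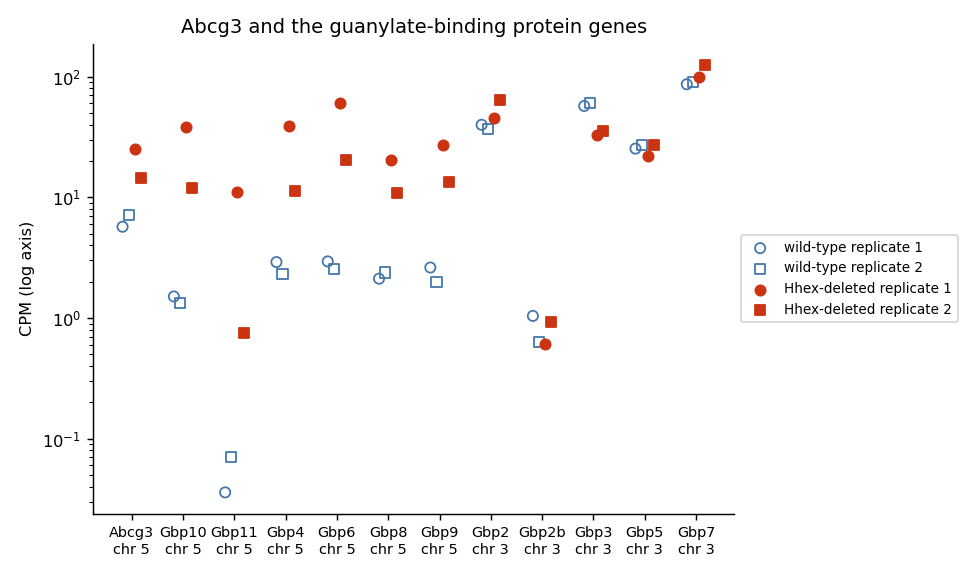
Level of Abcg3 and of the guanylate-binding protein genes of chromosomes 5 and 3 in CPM on a log axis, with 1 point for each library. The chromosome 5 genes and Abcg3 are higher in both libraries labelled Hhex-deleted, and higher in replicate 1 than in replicate 2.

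The genes were spread over 15 autosomes. Chromosome 1 held 4 of them (12.9%, against 5.70% of active genes), and chromosomes 5 and 12 held 3 each. Chromosome 19, which carries Hhex itself, held Lpxn and Gna14.

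Promoter windows of 300 bases, 250 before and 50 after the RefSeq start on GRCm38.p6, were found for 25 of the 31 genes. The searched letters were ATTAA and, separately, the palindrome TAATTA for homeodomain proteins, AGATAA for GATA factors and TGTGGT for RUNX factors. CAGCTG was searched for E-box proteins and GAGGAA for PU.1. All were searched on both strands and with overlaps allowed. ATTAA was in a window of 8 of the 25 (32%), against 30.1% of 27025 genes in the table and 18.9% of 8515 active genes. AGATAA was in 5 (20%), against 12.7% and 7.79%, and TAATTA was in 1 (4%), against 6.12% and 2.96%. The RUNX, E-box and PU.1 letters were in 5, 5 and 10 of the 25, or 20%, 20% and 40%, against 15%, 16.7% and 30.4% of active genes. The homeodomain and GATA letters are rich in A and T, and the windows differed in composition. For a gene with more than 1 window, the highest value was taken. On that measure the 25 genes had a median of 14 CpG sites and 60% G and C. Active genes had 23 sites and 62%, and all genes had 8 sites and 53.3%. The windows of Golm1 and Cep164 held 30 and 12 CpG sites.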

How the data were processed

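Libraries of sorted LSK cells were prepared with the TruSeq RNA kit of Illumina, per the labels' protocols. The authors deposited raw read counts per Entrez gene for 4 libraries and log2 RPKM values per library. Per the submitters' processing notes, the build was mm9 and the tools included limma, Subread and featureCounts; the role, version and strand setting of each is not given in the sources used here.

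CPM values are counts over the library's column sum. Counts were fitted in R 4.3.3 with edgeR 4.0.16 (filterByExpr by group, minimum count 10, minimum total 15, TMM scaling, robust quasi-likelihood, Benjamini-Hochberg threshold of 0.05), and the code was tested on simulated data. DESeq2 1.42.0, limma-voom (limma 3.58.1), other scaling, no filter, a replicate block, other thresholds, the deposited log2 RPKM values and leaving out each library were alternatives. The biological coefficient of variation was 16.3%. RefSeq tables of GRCm38 gave names, gene order and promoter sequence.

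Genes are named by the largest ratio (12), the highest wild-type level (6), list membership and closeness to the thresholds, and the rest by role. The set, the lists, the families and the role groups were chosen with earlier results of these data known.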

Additional observations from a re-analysis of the deposited data

How the results depend on the processing

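The number of genes that met the rule, 31, followed its thresholds: 96 genes at a fold of 1.5, 12 at a fold of 3, 62 at a wild-type minimum of 2 CPM and 10 at a minimum of 10 CPM. Leaving out each library in turn gave 45 (without wild-type replicate 1) to 64 genes (without Hhex-deleted replicate 1), with 47 and 61 without wild-type replicate 2 and Hhex-deleted replicate 2, and each list held the 31 by construction. TMM scaling and DESeq2 size factors each gave 29, losing Abcg3 and Slc7a8. The deposited log2 RPKM values also gave 29, losing Abcg3, Auts2 and Entrez gene 100041450 (the last has no value there) and adding P2rx4. Genes called higher numbered 221 with edgeR, 488 with DESeq2, 187 with limma-voom and 284 with no filter. With each library left out they numbered 84 (without wild-type replicate 2) to 366 (without Hhex-deleted replicate 1), with 119 and 232 without wild-type replicate 1 and Hhex-deleted replicate 2. The median log2 fold change of the 31 genes, 1.73, lay between 1.70 and 1.92 in every alternative fit.

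The labels number replicates 1 and 2 in both groups and say nothing of what a number shares. Same-numbered libraries deviated together with a correlation of 0.33 across genes, and a fit with the replicate block called 185 genes higher and 130 lower, with a median of 1.72 for the 31 genes. Of 309 values of single genes of the set under the alternatives, 290 moved by less than the replicate spread, 19 by more, and 0 changed sign. The number of libraries, 2 in each group, limits the precision of every value.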
